A study of Mus musculus with 14 samples.

Results

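Resveratrol, a polyphenol found in grape skin, was added to a fat-rich diet, and the livers of those mice were compared with the livers of mice fed the same diet without it. The comparison rests on 9 of the 14 arrays in the series, 4 with resveratrol and 5 without, chosen by their titles alone. All animals were male C57BL/6 mice aged 1 year, fed ad libitum, with 1 mouse per array. The high-calorie group ate AIN-93G, a purified rodent diet, changed so that fat supplied 60% of the calories, and the resveratrol group ate that diet with 0.04% resveratrol. A further 5 mice on unchanged AIN-93G are used below for context only. The liver RNA of each mouse was labelled with Cy3 and hybridised against a Cy5-labelled pool of 5 livers from mice on the standard diet, so a value is the log2 ratio of mouse to pool. Dyes were not swapped, which makes the ratio itself open to dye bias, while the difference between groups is free of any dye effect that all arrays share. Whole liver was used, so fewer cells of a type and less RNA per cell cannot be told apart.

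Several known features of the liver set the order of what follows. Mouse hepatocytes differ between the sexes: pulsed growth hormone acting through STAT5b and androgens maintain a male set of genes, and a female set is held low in males. The nuclear receptors CAR and PXR switch on cytochromes P450 and transporters that clear drugs and steroids, and NRF2 switches on glutathione transferases and quinone reductase. A fatty liver also carries more fatty acid uptake and lipid droplet proteins, many of them targets of PPAR-gamma. Cholesterol synthesis is run by SREBP2, interferon-stimulated genes by STAT2 and IRF9, and acute phase proteins by interleukin-6 and STAT3. Resveratrol is widely studied in connection with SIRT1, a NAD-dependent deacetylase, and AMPK, an energy sensor.

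Array brightness overlapped between the groups. Median net Cy3 signal was 84.4 ± 20.8 intensity units (SD, n = 5) in high-calorie and 79.4 ± 15.9 (SD, n = 4) in resveratrol livers (two-sided exact permutation p = 0.714), and 87.6% ± 3.09 (SD, n = 5) against 86.4% ± 4.48 (SD, n = 4) of probes lay well above background (exact permutation p = 0.627). On the first principal component of the 9 arrays the high-calorie livers lay close together, from -14.4 to -10.7, and the resveratrol livers at 12.9, 3.06, 37.1 and 6.55, so resveratrol replicate 3 stood apart from its own group. The image extraction day in the file headers did not match between the groups. All 4 resveratrol arrays and high-calorie replicates 1 and 4 were extracted on the first day, and high-calorie replicates 2, 3 and 5 on the second. The scanned slides fell into 2 number series: high-calorie replicates 1 and 4 and resveratrol replicates 1, 3 and 4 were in the first, the other 4 arrays in the second. The label of liver was checked on 16 hepatocyte markers, among them albumin (Alb), transferrin (Trf) and Hnf4a, all of which were well above background on all 9 arrays.

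Of 32675 genes and unmatched probes tested, 1760 (5.39%) passed at a limma adjusted p under 0.05: 1033 rose with resveratrol (3.16%) and 727 fell (2.22%). Most changes were small. The median size among the genes that passed was 0.25 on the log2 scale, and 158 (0.484%) exceeded 1.5-fold and 51 (0.156%) exceeded 2-fold, 30 up (0.0918%) and 21 down (0.0643%). A known gene symbol was available for 875 of the 1760, 443 higher and 432 lower. The number depended strongly on how the arrays were scaled: with each array centred on its median in place of loess, 120 passed, 31 up and 89 down, and with the Cy3 channel alone 83 passed, 22 up and 61 down. The split between rises and falls therefore moved from 58.7% rises to 25.8% and 26.5% in these settings. Leaving out 1 array at a time gave 352 to 2043, and the number fell by over 1.5 times without high-calorie replicates 1 (893), 2 (752), 3 (1120) or 5 (658) or resveratrol replicates 1 (352) or 3 (959). Within the first extraction day, high-calorie replicates 1 and 4 against the 4 resveratrol livers, 52 passed; within the first slide series limma called none, with 3987 at an unadjusted p under 0.05. Of the 132 named genes that passed over all 9 arrays, 19 passed within the first day and none in limma within the first slide series, where fewer arrays were compared. With all arrays kept, 72 of them passed with extraction day as a block and 81 with slide series as a block. The second day held no resveratrol array and the second slide series held 1, so neither gives a value.

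**Figure D1:**
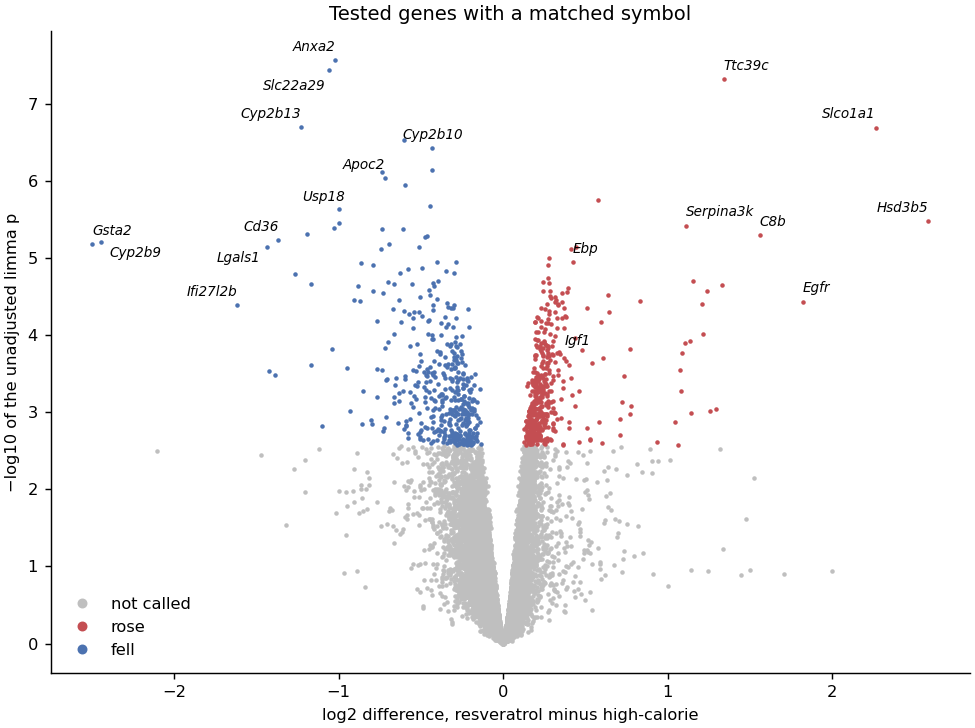
Log2 difference between resveratrol and high-calorie livers (x axis) against -log10 of the unadjusted limma p (y axis) for the 15236 tested genes with a matched symbol, 1 point per gene, red for rises and blue for falls that passed. The named points at the edges are Hsd3b5 and Slco1a1 among the rises and Gsta2 and Cyp2b9 among the falls, while most genes that passed lie within 0.5 log2 units of 0.

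All 47 gene lists were chosen with earlier results of these data known, so shares set beside those of all genes only describe the lists. Genes of the male liver were among the largest rises. Of 20 measured genes known to be higher in male than in female mouse liver, 9 rose and none fell, where 3.16% of all genes rose, and the median difference of the list was 0.68 against -0.01 over all genes. All 20 differences were above 0, and 11 had every resveratrol array above every high-calorie array, as 6.82% of all genes did. With median centring 7 rose and the list's median was 0.45, with Cy3 alone 4 rose, and without resveratrol replicate 1 the number was 6. On the 4 resveratrol arrays the list's mean lay 0.99, 0.81, 0.97 and 0.63 above the high-calorie mean, and on the 5 high-calorie arrays between -0.07 and 0.10, so every resveratrol liver stood above every high-calorie liver.

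Hsd3b5, a 3-ketosteroid reductase of male liver, read -2.66, -2.72, -2.53, -2.41 and -2.89 in the high-calorie livers and 0.93, 0.67, -0.48 and -1.36 in the resveratrol livers. The groups did not overlap, a condition for naming the largest changes, but the resveratrol livers were widely spread, replicate 1 highest and replicate 4 lowest. The difference was 2.58 ± 0.35 (SE, 5.99-fold, limma adjusted p = 0.00398). Its neighbour Hsd3b4 rose by 1.16 ± 0.18 (SE, adjusted p = 0.00698) with the same order of resveratrol livers, 0.60, 0.25, -0.18 and -0.54; the 2 sequences are alike, so signal may be shared. Slco1a1, an organic anion transporter of the hepatocyte membrane, read -2.59, -1.80, -2.18, -2.38 and -2.37 against 0.54, 0.60, -0.73 and -0.40. The difference was 2.27 ± 0.24 (SE, 4.81-fold, adjusted p = 0.000946). The Slco1a1 probe was well above background on 4 of the 5 high-calorie arrays, and its second probe gave 1.66. Sizes depended on the background step: without background correction the differences were 1.15 for Hsd3b5 and 0.90 for Slco1a1, and with the scanner's processed signals 3.84 and 3.92. Egfr, the epidermal growth factor receptor, read -2.86, -2.26, -2.34, -2.72 and -2.09 against -1.31, -0.59, 0.28 and -0.91, a rise of 1.82 ± 0.31 (SE, 3.53-fold, adjusted p = 0.00822), and its other 2 probes gave 1.33 and 0.95. Cyp7b1, the oxysterol 7-alpha-hydroxylase of the acidic bile acid pathway, rose by 1.21 ± 0.21 (SE, adjusted p = 0.00833).

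The major urinary proteins, pheromone carriers secreted by male liver, belong to a family of near-identical genes whose probes may share signal. Mup5 rose by 1.24 ± 0.20 (SE, adjusted p = 0.0076), from -0.88, -0.17, -0.06, -0.33 and -0.63 to 1.26, 0.70, 0.70 and 0.62. Mup3 rose by 1.21 ± 0.23 (SE, adjusted p = 0.012) and lost the call without resveratrol replicate 1 (adjusted p = 0.0506), the array on which both genes were highest. The Mup1 probe was saturated on all 4 resveratrol arrays and on 1 high-calorie array, so no size is given for it, although it counts among the 9; its call was lost without any 1 of the 9 arrays (adjusted p up to 0.13). Susd4, a complement regulator of the same list, rose by 0.77 ± 0.15 (SE, adjusted p = 0.014) and lost the call without resveratrol replicate 1 (adjusted p = 0.0551). Elovl3, a male-biased fatty acid elongase, gave 0.52 ± 0.24 (SE) without passing (adjusted p = 0.213).

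**Figure D2:**
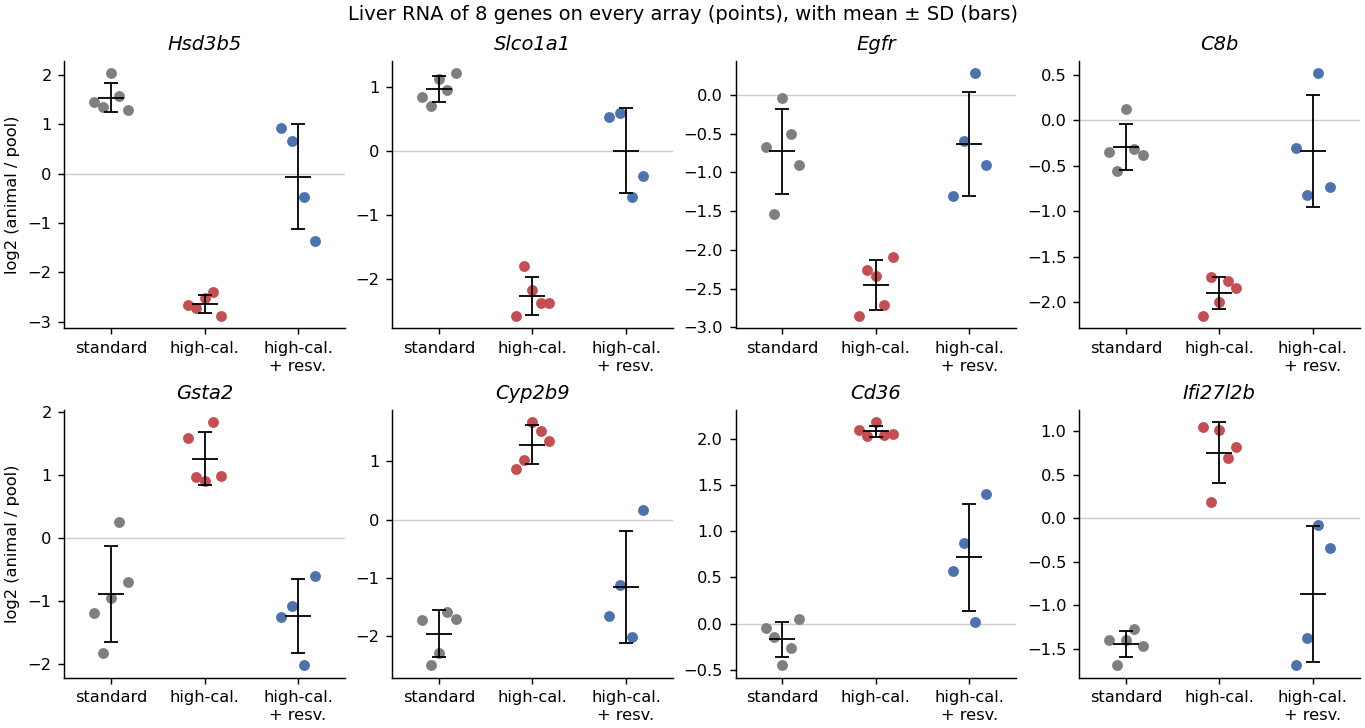
Log2 ratio of mouse to pool (y axis) of 8 genes on every array, with points for single livers and bars for the mean ± SD of the standard-diet (n = 5), high-calorie (n = 5) and resveratrol (n = 4) groups. High-calorie and resveratrol livers do not overlap for any of the 8 genes, and lack of overlap was part of how the largest changes were chosen. Resveratrol livers are the more scattered group for Hsd3b5, from -1.36 to 0.93.

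Of 21 measured genes known to be higher in female liver, 7 fell and none rose, where 2.22% of all genes fell, and the median was -0.32. That median was -0.17 without resveratrol replicate 3, -0.10 without background correction and -0.20 with Cy3 alone, where 2 fell. The list shares 8 tested genes with the CAR and PXR targets, 5 of which passed, so the 2 lists are not separate results. Of 41 measured CAR and PXR targets 10 fell and none rose, with a median of -0.37. Without resveratrol replicate 1 the 10 became 6, and 6 also fell with median centring or with extraction day as a block, and 1 with Cy3 alone. Cyp2b9, a steroid-hydroxylating cytochrome P450 of female liver, read 0.87, 1.03, 1.67, 1.52 and 1.34 in the high-calorie livers and -1.65, -1.13, -2.02 and 0.17 in the resveratrol livers. It fell by 2.44 on the log2 scale (SE 0.35, 5.44-fold, adjusted p = 0.00432); its dimmer second probe gave -0.43, and without background correction the difference was -1.53. Cyp2b13, its close relative, fell by 1.23 (SE 0.13, adjusted p = 0.000946), from 0.87, 0.61, 1.37, 1.23 and 0.79 to -0.42, -0.37, -0.23 and 0.00. Cyp2b10, the standard reporter of CAR activity, fell by less and with little scatter: 0.58, 0.43, 0.58, 0.55 and 0.43 against 0.08, 0.06, 0.06 and 0.13, a difference of -0.43 ± 0.05 (SE, adjusted p = 0.00127). Cyp2b sequences are closely related, so shared hybridisation between these probes was not tested.

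Other members of the female and drug-clearance sets also fell. Slco1a4, a bile salt and steroid transporter, fell by 0.63 (SE 0.11, adjusted p = 0.0082) and Ntrk2, a neurotrophin receptor listed for female liver, by 0.73 (SE 0.12, adjusted p = 0.0076). Cyp2c38, a minor P450, fell by 0.43 (SE 0.08, adjusted p = 0.0126), with its probe well above background on 3 of the 4 resveratrol arrays. The near-identical pair Cyp2a4 and Cyp2a5, steroid and coumarin hydroxylases, fell by 1.39 (SE 0.30, adjusted p = 0.0186) and 1.43 (SE 0.30, adjusted p = 0.0179), and both lost the call without resveratrol replicate 1 (adjusted p = 0.0708 and 0.0692). Their lowest values, -2.18 and -2.05, were those of resveratrol replicate 3. Ugt1a1, which conjugates bilirubin, fell by 0.30 (SE 0.06, adjusted p = 0.0157) and lost the call without resveratrol replicate 1 (adjusted p = 0.06). Among 22 sulfotransferases and glucuronosyltransferases 2 fell (9.09%, where 2.22% of all genes fell), Ugt1a1 and Sult1c2. Sult1c2 gave -0.48 ± 0.10 (SE, adjusted p = 0.0181, and 0.0554 without resveratrol replicate 1). The list's median was -0.26, or -0.16 without resveratrol replicate 3. None of the 22 fell with extraction day as a block (limma).

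Among glutathione transferases and other NRF2 targets, 17 of 51 measured members fell, none rose and 34 did not pass, where 2.22% of all genes fell. The list shares 6 genes with the CAR and PXR targets, 2 of which passed. In the NRF2 list 22 had resveratrol arrays all below the high-calorie arrays (6.15% of all genes), and the median was -0.275. The number fell to 9 without high-calorie replicate 1 or 5, 6 without resveratrol replicate 1 and 11 without resveratrol replicate 3. Both scalings kept the direction (median -0.41 with median centring, -0.35 with Cy3 alone), although 5 and 4 members then passed, and 9 fell with slide series as a block. Several standard NRF2 targets were among those that did not pass, named here after their values were seen: heme oxygenase 1 (Hmox1) gave 0.04, thioredoxin reductase 1 (Txnrd1) -0.04, the cystine transporter subunit Slc7a11 0.00 and thioredoxin (Txn1) -0.07. Gstp1, a pi-class glutathione transferase, gave 0.74 ± 0.36 (SE, adjusted p = 0.254). Gsta2, an alpha-class glutathione transferase, showed the largest fall of any named gene: 1.59, 0.97, 0.90, 1.83 and 0.98 in the high-calorie livers against -1.26, -1.09, -2.03 and -0.60. The difference was -2.50 ± 0.36 (SE, 5.65-fold, adjusted p = 0.00432), or -1.47 without background correction. The mu-class enzyme Gstm2 fell by 1.20 (SE 0.17, adjusted p = 0.00421), from 0.91, 0.41, 0.56, 0.58 and 0.71 to -0.85, -0.37, -0.98 and -0.04. Gstm3 fell by 0.95 (SE 0.20, adjusted p = 0.0175); mu-class genes resemble each other, and their probes may share signal. Mgst3, a microsomal glutathione transferase, fell by 0.77 (SE 0.14, adjusted p = 0.00972).

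Nqo1, the NAD(P)H quinone reductase used to read NRF2 activity, gave 1.18, 0.60, 0.69, 0.81 and 0.74 in the high-calorie livers and 0.02, 0.18, -0.04 and 0.13 in the resveratrol livers. Every resveratrol liver lay below every high-calorie liver, and the fall was 0.73 (SE 0.10, adjusted p = 0.00398). The transcript of NRF2 itself, Nfe2l2, fell by 0.73 (SE 0.15, adjusted p = 0.0177) and lost the call without resveratrol replicate 1 (adjusted p = 0.0551); its other 2 probes gave -0.81 and 0.01 and so disagreed. Tkt, the transketolase of the pentose phosphate pathway, fell by 0.72 (SE 0.14, adjusted p = 0.0137), and without resveratrol replicate 1 its adjusted p was 0.0571; its other probes gave -0.31 and -0.04. Gclc, the catalytic subunit of glutathione synthesis, was lowest on resveratrol replicate 3 at -1.39 against -0.13 to 0.00 on the other 3, and its fall of 0.93 (SE 0.22, adjusted p = 0.0308) lost the call without any of the high-calorie arrays or resveratrol replicate 1 (adjusted p up to 0.0738). Of 24 antioxidant enzymes 3 fell (Gpx4 and the peroxiredoxins Prdx3 and Prdx6) and 1 rose, 16.7% in all where 5.39% of all genes passed. The peroxiredoxins lost their calls without high-calorie replicate 5 or resveratrol replicates 1 or 3, and Prdx6 also without high-calorie replicates 1 to 4 (adjusted p up to 0.111). Gpx4, which reduces lipid peroxides in membranes, fell by 0.58 (SE 0.09, adjusted p = 0.00611), and Msrb1, a methionine sulfoxide reductase, rose by 0.27 (SE 0.05, adjusted p = 0.00946). Cyp1a1, the chief target of the aryl hydrocarbon receptor, is not analysed here.

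**Figure D3:**
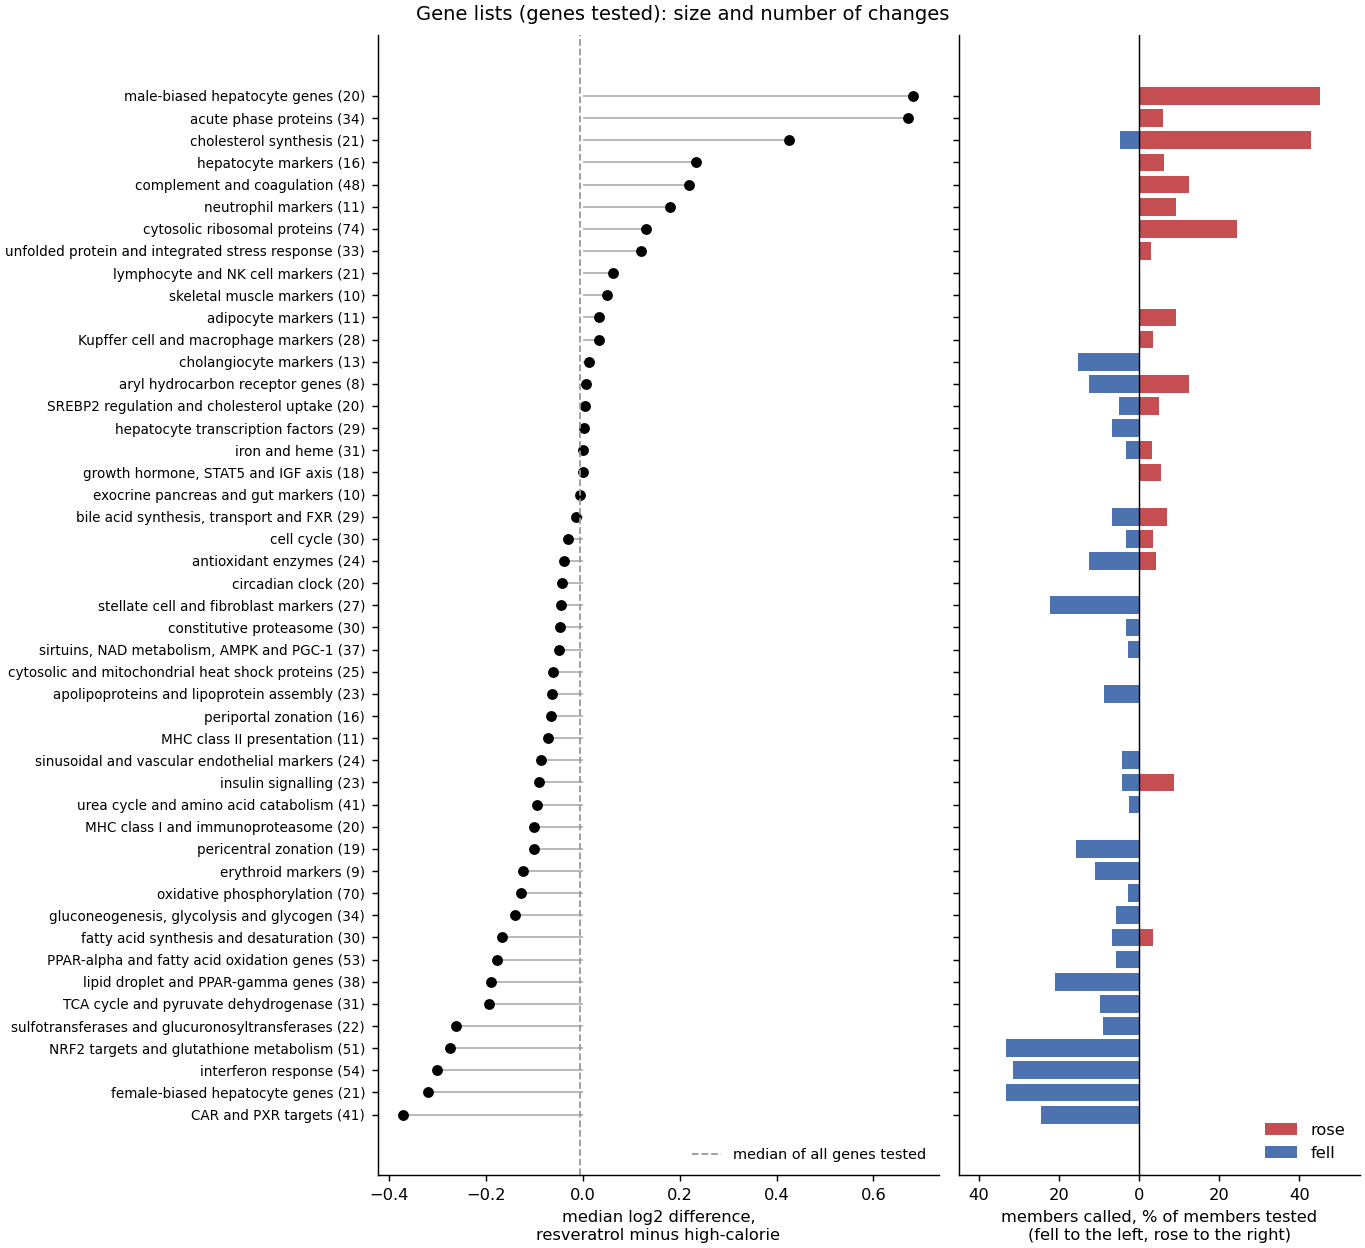
Median log2 difference between resveratrol and high-calorie livers over the tested members of each of 47 gene lists (left, x axis; number tested in brackets) and the percentage of those members that rose or fell (right, x axis). Male-biased genes, acute phase proteins and cholesterol synthesis have the highest medians, and CAR and PXR targets, female-biased genes, the interferon response and NRF2 targets the lowest.

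In the list for lipid droplets and PPAR-gamma, 38 genes were measured. Of these 8 fell, none rose and 30 did not pass, where 2.22% of all genes fell, and 11 differences were above 0. The median was -0.19, or -0.13 without resveratrol replicate 3, and 4 fell with median centring and 2 with Cy3 alone; leaving out high-calorie replicate 1 left 5, and leaving out resveratrol replicate 1 left 3. Cd36, the fatty acid translocase of the plasma membrane, read 2.10, 2.04, 2.18, 2.05 and 2.05 in the high-calorie livers and 0.57, 0.87, 0.01 and 1.41 in the resveratrol livers. The high-calorie values were almost equal and the resveratrol values all lower and scattered, and the fall was 1.37 (SE 0.20, 2.58-fold, adjusted p = 0.00421), or 0.82 without background correction. Cidec, which fuses lipid droplets, fell by 1.17 (SE 0.19, adjusted p = 0.00698), from 1.24, 0.71, 1.08, 0.97 and 0.96 to -0.16, 0.51, -0.85 and -0.21. Mogat1, a monoacylglycerol acyltransferase, fell by 0.47 (SE 0.07, adjusted p = 0.00421) and Fitm2, a fat-storage inducing protein of the endoplasmic reticulum, by 0.43 (SE 0.09, adjusted p = 0.0184), the latter without the call when resveratrol replicate 1 was left out (adjusted p = 0.0571) and with a second probe at -0.08. Apoa4, an apolipoprotein of fatty liver and gut, fell by 1.17 (SE 0.24, adjusted p = 0.0168) and lost the call without the same array (adjusted p = 0.0691). Apoc2, the cofactor of lipoprotein lipase, fell by 0.72 (SE 0.09, adjusted p = 0.00185), and its resveratrol values were 0.00 on replicates 1 to 3 and 0.28 on replicate 4 against 0.54 to 0.90. Pparg itself gave -0.32 ± 0.10 (SE, adjusted p = 0.0698). Cidea, a brown-fat relative of Cidec, gave -2.10 ± 0.59 (SE, adjusted p = 0.0539), with resveratrol values of -0.70, -0.09, -3.64 and 0.09.

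Of 53 PPAR-alpha and oxidation genes 3 fell (Vnn1, Crat and Pdk4) and none rose, a share of 5.66% that was near the 5.39% of all genes, with a median of -0.18 that was -0.10 without resveratrol replicate 3. The number was 8 and 9 without resveratrol replicates 2 and 4, 1 without high-calorie replicate 1, 2 or 3, and none in limma without resveratrol replicate 1 or with extraction day or slide series as a block. Vnn1, a pantetheinase induced by PPAR-alpha, fell by 0.71 (SE 0.15, adjusted p = 0.0197) and lost the call without resveratrol replicate 1 (adjusted p = 0.0571). Pdk4, a brake on pyruvate oxidation, fell by 0.73 (SE 0.19, adjusted p = 0.0402), but kept the call only when high-calorie replicate 5 or resveratrol replicate 2 was the array left out (adjusted p up to 0.111 otherwise). Cpt1a, which admits fatty acids to mitochondria, gave -0.40 ± 0.12 (SE, adjusted p = 0.0777). Among 30 genes of fatty acid synthesis 2 fell, Insig2 and the elongase Elovl5, and 1 rose (10% in all, where 5.39% of all genes passed). The number that fell was 4 without resveratrol replicate 2 and 1 without any other array but resveratrol replicate 4. Elovl5 gave -0.86 ± 0.22 (SE, adjusted p = 0.0365). It lost its call without any high-calorie array or resveratrol replicate 1 or 3 (adjusted p up to 0.103). Insig2, which retains SREBPs in the endoplasmic reticulum, fell by 0.86 (SE 0.13, adjusted p = 0.00577), from 0.07, -0.12, -0.26, -0.08 and -0.33 to -0.89, -0.91, -1.38 and -0.85, and its second probe gave -0.64. Hacd3, a dehydratase of very long chain fatty acid elongation, rose by 0.34 (SE 0.07, adjusted p = 0.0144). The lipogenic genes Srebf1 (-0.30 ± 0.20), Fasn (-0.36 ± 0.20) and Scd1 (-0.96 ± 0.42, each log2 ± SE) did not pass (adjusted p = 0.412, 0.322 and 0.198). Scd1, the stearoyl-CoA desaturase, read 1.65, 2.26, -0.01 and 1.59 in the resveratrol livers against 2.10 to 2.58, and replicate 3 was the lowest liver.

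Of 54 measured interferon-stimulated genes 17 fell and none rose (11 without resveratrol replicate 1), where 2.22% of all genes fell. In the list 24 had resveratrol arrays all below the high-calorie arrays (6.15% of all genes), and the median was -0.30. With median centring and with Cy3 alone the median was -0.29 and 10 and 8 fell; without background correction it was -0.13. The number was 10 with extraction day as a block and 1 within the first day. To show what their promoters hold, 250 bases before the RefSeq start were searched for the interferon-stimulated response element, GAAA and GAAA again with any pair of bases between, on either strand, overlapping matches included. Of 37 list members with such a window, 18 (48.6%) held it, against 3.46% of 27025 genes. Among the members that fell it was 6 of 12 (50%), and among those that did not pass 12 of 25 (48%). The stretches upstream of the start of those 6 genes are printed 5′ to 3′ from the RefSeq table of GRCm38.p6, with the matched letters in capitals; on the opposite strand the element reads TTTC and TTTC. A match is a description of the sequence and shows no binding.
Ifit1, chr19:34640769-34640888, plus strand: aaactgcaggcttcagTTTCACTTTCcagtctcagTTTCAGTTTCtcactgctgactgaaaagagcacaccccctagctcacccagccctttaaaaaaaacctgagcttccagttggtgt
Ifit3, chr19:34583369-34583528, plus strand: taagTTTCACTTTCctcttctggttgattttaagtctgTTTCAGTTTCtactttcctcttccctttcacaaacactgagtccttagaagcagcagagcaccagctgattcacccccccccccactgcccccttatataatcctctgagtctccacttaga
Isg15, chr4:156200819-156200908, minus strand: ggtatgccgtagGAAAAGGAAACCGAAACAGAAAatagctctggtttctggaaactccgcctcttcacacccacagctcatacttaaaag
Oas1a, chr5:120907526-120907585, minus strand: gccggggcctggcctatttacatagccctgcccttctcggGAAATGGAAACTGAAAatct
Gbp3, chr3:142559984-142560043, plus strand: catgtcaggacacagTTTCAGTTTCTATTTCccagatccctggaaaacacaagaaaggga
Bst2, chr8:71537473-71537612, minus strand: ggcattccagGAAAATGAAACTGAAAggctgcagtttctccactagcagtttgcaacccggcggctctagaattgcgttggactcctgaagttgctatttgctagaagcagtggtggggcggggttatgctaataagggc

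Ifi27l2b, a small interferon-inducible membrane protein, read 1.04, 0.18, 1.01, 0.69 and 0.82 in the high-calorie livers and -1.69, -1.37, -0.08 and -0.34 in the resveratrol livers. It fell by 1.62 (SE 0.28, 3.07-fold, adjusted p = 0.00833), with resveratrol replicates 1 and 2 the lowest. Usp18, which removes ISG15 from proteins and dampens the interferon receptor, gave 0.61, 0.75, 0.50, 0.76 and 0.84 against -0.48, -0.46, -0.32 and 0.03, a fall of 1.00 (SE 0.13, adjusted p = 0.00315). The guanylate-binding GTPases Gbp3 and Gbp6 fell by 1.00 (SE 0.14, adjusted p = 0.00398) and 0.49 (SE 0.08, adjusted p = 0.00611). Ifit1, which binds viral RNA caps, read 0.53, 0.75, 0.58, 0.58 and 0.96 against -0.23, -0.20, -0.33 and 0.31. It fell by 0.79 (SE 0.12, adjusted p = 0.00577), and in Ifit1, Usp18 and Gbp3 alike resveratrol replicate 4 lay nearest to the high-calorie livers. Cmpk2, a mitochondrial nucleotide kinase, fell by 0.70 (SE 0.11, adjusted p = 0.00698), while its second probe gave -0.04.

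Of the other genes whose promoters are printed, named here for the printed sequence after their values were seen, Ifit3 fell by 0.88 (SE 0.14, adjusted p = 0.00711) and the 2-5A synthetase Oas1a by 0.50 (SE 0.09, adjusted p = 0.00937). Isg15, a ubiquitin-like modifier, fell by 0.67 (SE 0.15, adjusted p = 0.0246) and Bst2, which tethers virions, by 0.59 (SE 0.15, adjusted p = 0.037). Both lost the call without high-calorie replicates 1, 2 or 5 or resveratrol replicates 1 or 2, Isg15 also without resveratrol replicate 3 and Bst2 without high-calorie replicates 3 or 4 (adjusted p up to 0.0964 and 0.128). None of 20 genes of MHC class I and the immunoproteasome passed in limma (median -0.10), and none of 11 class II genes (median -0.07). B2m, the light chain of class I, gave -0.35 ± 0.10 (SE, adjusted p = 0.0539). Among markers of immune cells, none of 21 for lymphocytes and natural killer cells passed in limma (median 0.06). Of 28 Kupffer cell and macrophage markers 1 rose (3.57%), near the 3.16% of all genes that rose. That marker was Csf1r, the receptor for colony stimulating factor 1, at 0.28 ± 0.06 (SE, adjusted p = 0.0149, or 0.0606 without resveratrol replicate 1). The mean of the macrophage list was -0.31, -0.27, 0.24 and 0.54 on the resveratrol arrays against -0.08 to 0.12, so its sign differed between resveratrol livers.

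**Figure D4:**
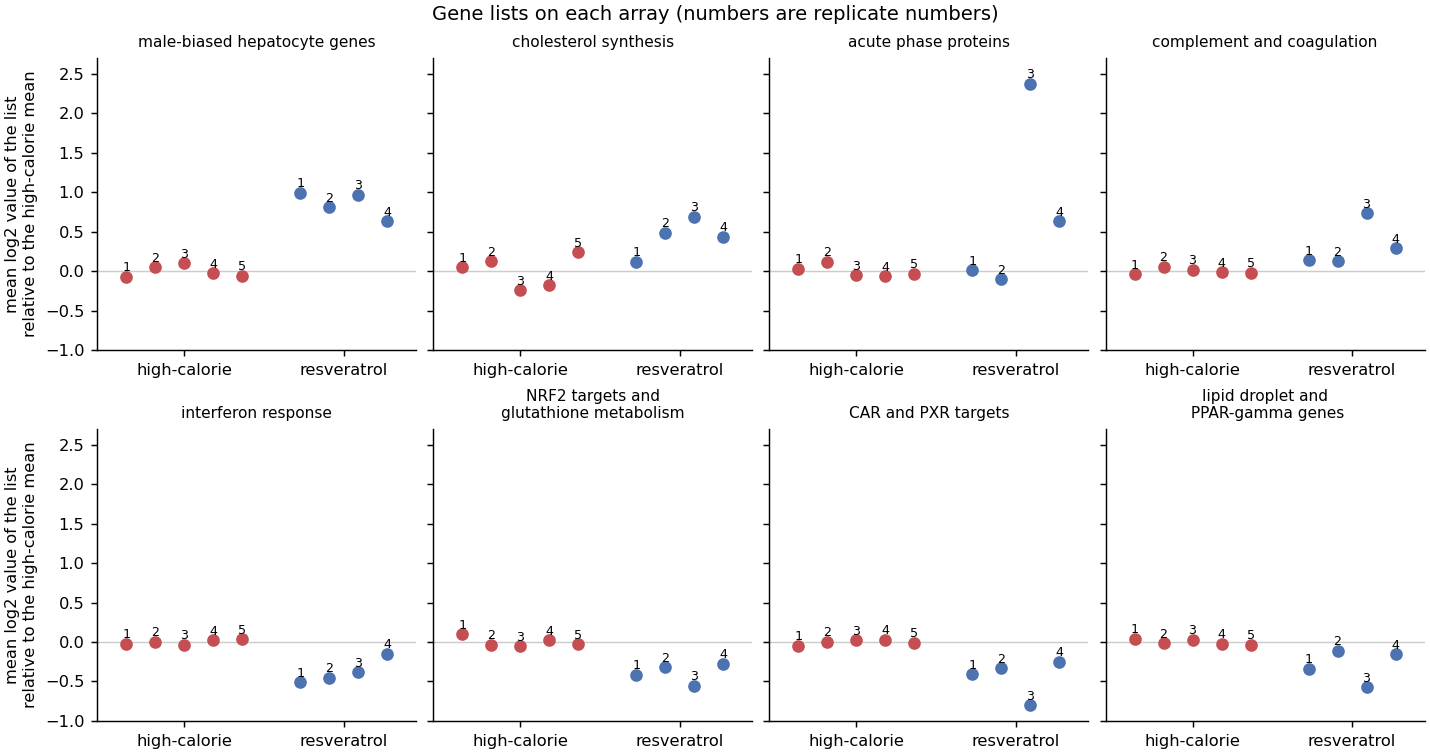
Mean log2 value of 8 gene lists on each array, relative to the mean of the 5 high-calorie arrays (y axis), with replicate numbers above the points. The acute phase mean is 2.38 on resveratrol replicate 3 and 0.01 and -0.10 on replicates 1 and 2, while the interferon list lies below the high-calorie arrays on all 4 resveratrol arrays.

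Of 21 measured enzymes of cholesterol synthesis 9 rose and 1, Ggps1, fell (-0.17), with a median of 0.42. Over all genes 3.16% rose and 2.22% fell. With median centring the median was 0.30 and none passed, and with Cy3 alone 0.31 and none. The number that rose was 4 without high-calorie replicate 1, 2 or 3 or resveratrol replicate 2, 5 without high-calorie replicate 4, and lowest, at 2, when resveratrol replicate 3 was omitted. With extraction day as a block 4 rose. Ebp, the sterol isomerase, gave -0.73, -0.73, -0.58, -0.73 and -0.65 in the high-calorie livers and -0.34, -0.19, -0.19 and -0.31 in the resveratrol livers, a rise of 0.43 ± 0.06 (SE, adjusted p = 0.00577). Hsd17b7, a sterol 3-ketoreductase, gave 0.34, 0.40, 0.00, 0.00 and 0.57 against 0.69, 1.07, 1.03 and 1.20, a rise of 0.73 ± 0.16 (SE, adjusted p = 0.019), and its second probe gave 0.51. Those 2 genes did not overlap between the groups, whereas Msmo1, Cyp51 and Erg28 did.

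Msmo1, the C-4 methylsterol oxidase, read -0.66, -0.32, -1.26, -0.85 and 0.04 against 0.03, 0.42, 0.86 and 0.59, with high-calorie replicate 5 reaching the lowest resveratrol liver. It rose by 1.08 ± 0.24 (SE, adjusted p = 0.0227), with adjusted p up to 0.0657 without high-calorie replicate 1 or resveratrol replicate 3. Cyp51, the lanosterol demethylase, rose by 0.37 ± 0.08 (SE, adjusted p = 0.022; 0.0618 without resveratrol replicate 3). Erg28, a scaffold for sterol enzymes, rose by 0.46 ± 0.10 (SE, adjusted p = 0.0226) and lost the call without high-calorie replicate 2 or 3 or resveratrol replicate 2 or 3 (adjusted p up to 0.0612). Hmgcs1, the cytosolic HMG-CoA synthase, just missed the threshold (0.72 ± 0.20, SE, adjusted p = 0.0513): resveratrol replicates 2 to 4 read 1.27, 1.36 and 1.25 and replicate 1 read 0.32, inside the high-calorie range of -0.02 to 0.61. Hmgcs1 is described because it alone among 17 members with a promoter window held the sterol regulatory element TCACNCCAC, present in 1.22% of all genes. Its 150 bases before the start are shown for that match, again from GRCm38.p6 with the match in capitals.
Hmgcs1, chr13:119690201-119690350, plus strand: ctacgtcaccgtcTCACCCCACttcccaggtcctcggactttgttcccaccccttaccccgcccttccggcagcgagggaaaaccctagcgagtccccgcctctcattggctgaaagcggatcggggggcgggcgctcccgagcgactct

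Srebf2, which encodes SREBP2, did not pass (0.01 ± 0.05, SE, adjusted p = 0.957). Of 20 genes of SREBP2 regulation and cholesterol uptake 1 rose and 1 fell (10% in all, where 5.39% of all genes passed), with a median of 0.00. None of the 20 rose in limma when any single high-calorie array or resveratrol replicate 1 or 2 was left out. For the NRF2 list the antioxidant response element TGACNNNGC was held by 11 of 45 promoters (24.4%), by 2 of 15 of genes that fell (13.3%), by 9 of 30 of genes that did not pass (30%) and by 11.5% of all genes. No promoter of 40 on the PPAR-alpha list held the full PPAR response element, which 0.0407% of all genes held.

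Of 48 complement and coagulation genes 6 rose and none fell, where 3.16% of all genes rose. The median was 0.22 (0.10 with median centring, where 2 rose). The number that rose was 3 without high-calorie replicate 1, 2 or 5 or with extraction day as a block. Without resveratrol replicate 2 it was 10. C8b and C8a, chains of the membrane attack complex, led the rises. C8b read -2.15, -1.72, -2.00, -1.76 and -1.84 in the high-calorie livers and -0.30, -0.83, 0.52 and -0.73 in the resveratrol livers, a rise of 1.56 ± 0.22 (SE, 2.95-fold, adjusted p = 0.00421), or 0.84 without background correction. C8a, which is also on the male list, rose by 1.33 ± 0.22 (SE, adjusted p = 0.00711), from -1.24, -1.05, -1.13, -1.23 and -0.94 to 0.13, -0.44, 0.90 and 0.25. For both chains the highest liver was resveratrol replicate 3 and the lowest of the treated livers replicate 2. F11, coagulation factor XI, rose by 0.54 ± 0.11 (SE, adjusted p = 0.0164).

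The acute phase list had a median of 0.67 over 34 genes, yet 2 rose, Serpina3k and Serpina3m (5.88%, where 3.16% of all genes rose). The number that rose was 7 without resveratrol replicate 2, 1 without replicate 1, 4 without background correction and none in limma with median centring. The list's mean was 0.01, -0.10, 2.38 and 0.64 on resveratrol replicates 1 to 4, and without replicate 3 the median was 0.14. Lcn2, a siderophore-binding protein of inflamed liver, shown for that spread after its values were seen, read -1.89, -1.81, 2.60 and -0.45 in the resveratrol livers against -1.98 to -1.51 in the high-calorie livers. The serum amyloid genes Saa1 and Saa2 ran from -5.27 and -3.94 on replicate 2 to 2.31 on replicate 3, where both probes were saturated. High values lay on replicate 3 and, less so, on replicate 4, and neither Lcn2 (adjusted p = 0.248) nor Saa1 (0.371) passed. The mean of the neutrophil markers was also highest on replicates 3 and 4, at -0.01, -0.01, 0.62 and 0.24 on resveratrol replicates 1 to 4 against -0.01 to 0.02. Single markers did not all follow that order. Of 11 markers 1, lactoferrin (Ltf), rose (9.09%), by 0.21 (SE 0.06, adjusted p = 0.0401). Its adjusted p was up to 0.12 without high-calorie replicate 2, 3, 4 or 5 or resveratrol replicate 1 or 3. Ltf read 0.14, 0.00, 0.24 and 0.07 in the resveratrol livers, so replicate 1 lay above replicate 4. The part of neutrophil markers in the acute phase values was not tested. Serpina3k and Serpina3m, serpin genes of one cluster, rose by 1.11 ± 0.15 (SE, adjusted p = 0.00398) and 1.10 ± 0.21 (SE, adjusted p = 0.0131). Serpina3k was higher in all 4 livers (-0.04, -0.34, 0.38 and -0.33 against -1.40 to -0.86), its second probe gave 1.04, and Serpina3m lost the call without resveratrol replicate 1 (adjusted p = 0.0512). Serpina3c of the same cluster rose by 0.83 ± 0.14 (SE, adjusted p = 0.00822); serpin probes may share signal. Hepatocyte markers had a median of 0.23, which was -0.02 with median centring and -0.05 with Cy3 alone. The 1 of 16 that rose, the carrier protein fetuin-A (Ahsg; 0.71 ± 0.19, SE, adjusted p = 0.0432), gave -0.14 with Cy3 alone and kept its call in 1 of the 9 omissions, that of resveratrol replicate 4 (adjusted p up to 0.112 otherwise).

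The median of 27 stellate cell and fibroblast markers was -0.05. Of them 6 fell, none rose and 21 did not pass, where 2.22% of all genes fell. The number was 3 without high-calorie replicate 2 or resveratrol replicate 1 and with extraction day as a block, 2 with median centring and none in limma with Cy3 alone. Col1a2, a chain of type I collagen, read 0.67, 0.55, 0.49, 0.45 and 0.26 against -0.08, 0.00, -0.37 and -0.06, a fall of 0.61 (SE 0.08, adjusted p = 0.00398). Col3a1 fell by 0.58 (SE 0.10, adjusted p = 0.00925) and Lrat, which stores retinol in stellate cells, by 0.34 (SE 0.06, adjusted p = 0.0083). Lgals1, a galectin of mesenchymal and immune cells, read 1.06, 0.70, 0.94, 0.83 and 0.77 against -0.75, -0.44, -1.31 and 0.19, a fall of 1.44 (SE 0.21, 2.71-fold, adjusted p = 0.00432). Anxa2, a membrane-binding annexin, fell by 1.02 (SE 0.09, adjusted p = 0.000525), from 0.97, 0.64, 0.92, 1.10 and 0.87 to -0.24, -0.11, -0.20 and 0.07, and its dimmer probe gave -0.31. Ly6d, a small GPI-anchored surface protein, fell by 1.27 (SE 0.20, adjusted p = 0.0066) and Tubb2a, a beta-tubulin, by 1.03 (SE 0.14, adjusted p = 0.00398).

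Of 24 endothelial markers 1 fell (4.17%), Plvap at -0.19, where 2.22% of all genes fell. Of 13 cholangiocyte markers 2 fell (15.4%), Anxa4 at -0.28 and Krt8 at -0.36. Each of the 3 lost its call without any of high-calorie replicates 1, 2, 3 and 5 or resveratrol replicate 1. Plvap also lost it without resveratrol replicate 4, Anxa4 without 3 and Krt8 without 2 or 4. Over these omissions adjusted p reached 0.151. Of 10 skeletal muscle and 10 pancreas and gut markers none passed in limma. Globin RNA varied between livers: Hba-a1, an alpha-globin, gave -0.16, 0.88, 1.91, 0.46 and 1.29 in the high-calorie livers and -0.01, -0.32, -1.13 and -0.93 in the resveratrol livers (-1.48 ± 0.42, SE, adjusted p = 0.0576). The erythroid list's mean was -0.28 to 0.27 on high-calorie and -0.49 to -0.17 on resveratrol arrays, and its part in the other results was not tested. Of 11 adipocyte markers 1 rose (9.09%, where 3.16% of all genes rose) and 10 did not pass, with a list median of 0.03. The marker that rose, resistin (Retn, 0.23), lost the call without high-calorie replicate 1, 2 or 5 or resveratrol replicate 1 (adjusted p up to 0.09). Those that did not pass lay on both sides of 0, among them adiponectin (Adipoq, 0.26), leptin (Lep, -0.10) and Cidea (-2.10).

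Of 74 cytosolic ribosomal proteins 18 rose and none fell, where 3.16% of all genes rose, with a median of 0.13. With median centring the median was -0.04 and none passed, so their direction turned with the scaling. The number that rose was 4 without resveratrol replicate 1. It was 8 to 10 without high-calorie replicates 2 to 5 or resveratrol replicates 2 or 3. Rps21, Rps27, Rps29 and Rpl37a rose by 0.44, 0.33, 0.33 and 0.37 (adjusted p = 0.00432, 0.00833, 0.00833 and 0.00937). Of 70 oxidative phosphorylation genes 2, Ndufa3 and Ndufa7, fell (2.86%, median -0.13), a share near the 2.22% of all genes that fell. Of 31 genes of the citric acid cycle and pyruvate dehydrogenase 3, Idh2, Mpc1 and Pdk4, fell (9.68%, median -0.19). Without resveratrol replicate 2 the numbers that fell were 6 and 7, and the oxidative phosphorylation median was -0.08 without replicate 3. Other omissions lowered the numbers. No oxidative phosphorylation gene fell in limma without high-calorie replicate 2 or 3 or resveratrol replicate 1 or 3. In the citric acid cycle list 1 fell without any of high-calorie replicates 1 to 4 or resveratrol replicates 1 or 3. With median centring or Cy3 alone none of either list fell in limma. Ndufa3 and Ndufa7, subunits of complex I, and Mpc1, of the mitochondrial pyruvate carrier, gave -0.28, -0.18 and -0.50; all of them lost their calls without high-calorie replicates 2 or 3 or resveratrol replicates 1 or 3, and Ndufa7 and Mpc1 also without high-calorie replicates 1, 4 or 5 (adjusted p up to 0.127). Idh2, the mitochondrial NADP-dependent isocitrate dehydrogenase, fell by 0.46 (SE 0.08, adjusted p = 0.00971), from 0.75, 0.64, 0.53, 0.69 and 0.53 to 0.09, 0.21, 0.18 and 0.20. Hk2, a hexokinase scarce in normal hepatocytes, fell by 0.62 (SE 0.11, adjusted p = 0.00984), its probe well above background on 3 of the 4 resveratrol arrays. Khk, the fructokinase, fell by 0.51 (SE 0.11, adjusted p = 0.017; 0.0676 without resveratrol replicate 1). The gluconeogenic genes Pck1 (0.11 ± 0.36) and G6pc (-0.18 ± 0.23, both log2 ± SE) did not pass (adjusted p = 0.897 and 0.692).

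Of 37 genes of sirtuins, NAD metabolism, AMPK and PGC-1, 1 passed (2.7%, where 5.39% of all genes passed), and the median was -0.05. That gene was Nnt, the mitochondrial transhydrogenase that is defective in the C57BL/6J substrain, which fell by 0.30 (SE 0.06, adjusted p = 0.0177; 0.0631 without resveratrol replicate 1), while its other probe gave 0.02. Sirt1 read 0.14, 0.09, 0.07, 0.06 and 0.17 in the high-calorie livers and 0.08, 0.17, -0.03 and -0.01 in the resveratrol livers, with overlapping groups and a difference of -0.05 ± 0.06 (SE, adjusted p = 0.651). Sirt3 (-0.07 ± 0.15), Ppargc1a (-0.11 ± 0.06) and Prkaa2, an AMPK catalytic subunit (-0.17 ± 0.10), each log2 ± SE, did not pass (adjusted p = 0.845, 0.278 and 0.312). Prkaa1 is not analysed here. Igf1, the growth factor through which growth hormone acts, read -0.43, -0.37, -0.21, -0.47 and -0.25 against 0.07, -0.07, -0.02 and -0.06. It rose by 0.33 ± 0.06 (SE, adjusted p = 0.0146) and lost the call without resveratrol replicate 1 (adjusted p = 0.06); its second probe gave 0.14. It was the one gene that passed among 18 of the growth hormone, STAT5 and IGF axis. Igfbp1, an insulin-suppressed binding protein, gave 0.54 ± 0.58 (SE, adjusted p = 0.626), and its resveratrol values of -1.36, -0.68, 1.02 and -1.22 were again highest on replicate 3. Insr gave 0.01 ± 0.05 (SE, adjusted p = 0.927). None of 20 circadian clock genes and none of 25 heat shock genes passed in limma, with medians of -0.04 and -0.06.

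Of 29 bile acid genes 2 rose and 2 fell (13.8% in all, where 5.39% of all genes passed). The rises, Slco1a1 and Cyp7b1 above, are also on the male list. Of the falls, Slco1a4 above is also on the female and the CAR and PXR lists. The other fall was Abcb4, the phospholipid floppase of the bile canaliculus. Abcb4 read 0.36, 0.14, 0.25, 0.20 and 0.05 in the high-calorie livers and -0.43, -0.31, -0.70 and -0.18 in the resveratrol livers, a fall of 0.61 (SE 0.11, adjusted p = 0.00876). Cyp7a1, the rate-limiting enzyme of bile acid synthesis, gave 0.40 ± 0.14 (SE, adjusted p = 0.11) although its groups did not overlap (-0.52 to -0.23 against -0.07 to 0.18); a second probe gave 0.07.

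Among the remaining large changes were transporters and genes of less settled function. Slc22a7, the organic anion transporter OAT2, rose by 1.09 ± 0.22 (SE, adjusted p = 0.0146), from -1.21, -0.69, -0.54, -0.82 and -0.72 to -0.06, 0.22, 1.00 and 0.01. Slc22a29, of the same family, fell by 1.06 (SE 0.10, adjusted p = 0.000525), from 0.68, 0.44, 0.66, 0.58 and 0.53 to -0.70, -0.37, -0.63 and -0.22. Slc16a7, the pyruvate and lactate carrier MCT2, fell by 1.04 (SE 0.20, adjusted p = 0.014). Ttc39c, a tetratricopeptide repeat protein, rose by 1.34 ± 0.13 (SE, adjusted p = 0.000525), while its second probe gave -0.06, so the rise is that of 1 probe. Ang, angiogenin, rose by 1.07 ± 0.22 (SE, adjusted p = 0.0177), but a second probe gave 0.05. The related Ang4 and Ang2 gave 1.14 and 1.04 with the same order of livers and lost their calls without any of high-calorie replicates 1, 2, 3 and 5 (adjusted p up to 0.0676 and 0.0753), Ang2 also without high-calorie replicate 4 or resveratrol replicate 4. Ptk2b, a calcium-dependent tyrosine kinase, rose by 1.29 ± 0.31 (SE, adjusted p = 0.0296), with resveratrol values of -0.42, -0.82, 0.86 and -1.01 against -1.86 to -1.54, and lost the call without high-calorie replicate 1, 2, 3 or 5 or resveratrol replicate 1 (adjusted p up to 0.0842).

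Small rises also occurred among receptors that liver is not known to make. Of 898 tested olfactory, vomeronasal and trace amine receptor genes, a family looked at after the values were seen, 75 rose and 8 fell, where 3.16% of all genes rose, with a median of 0.04. With all tested genes sorted into 5 equal bins by brightness, 0.321% of the dimmest bin rose and 0.597% fell, against 6.37% and 3.47% of the brightest; 562 of the 898 receptors lay in the brightest 2 bins. One receptor, Olfr166, exceeded 2-fold (1.13 ± 0.22, SE, adjusted p = 0.0131; 0.0527 without resveratrol replicate 1), and its second probe gave 0.01. Beside the threshold, Rpl22l1 (0.36) lay just inside at an adjusted p of 0.0498, and Icam5 (0.19) and Fshr (0.17) just outside at 0.0501.

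**Figure D5:**
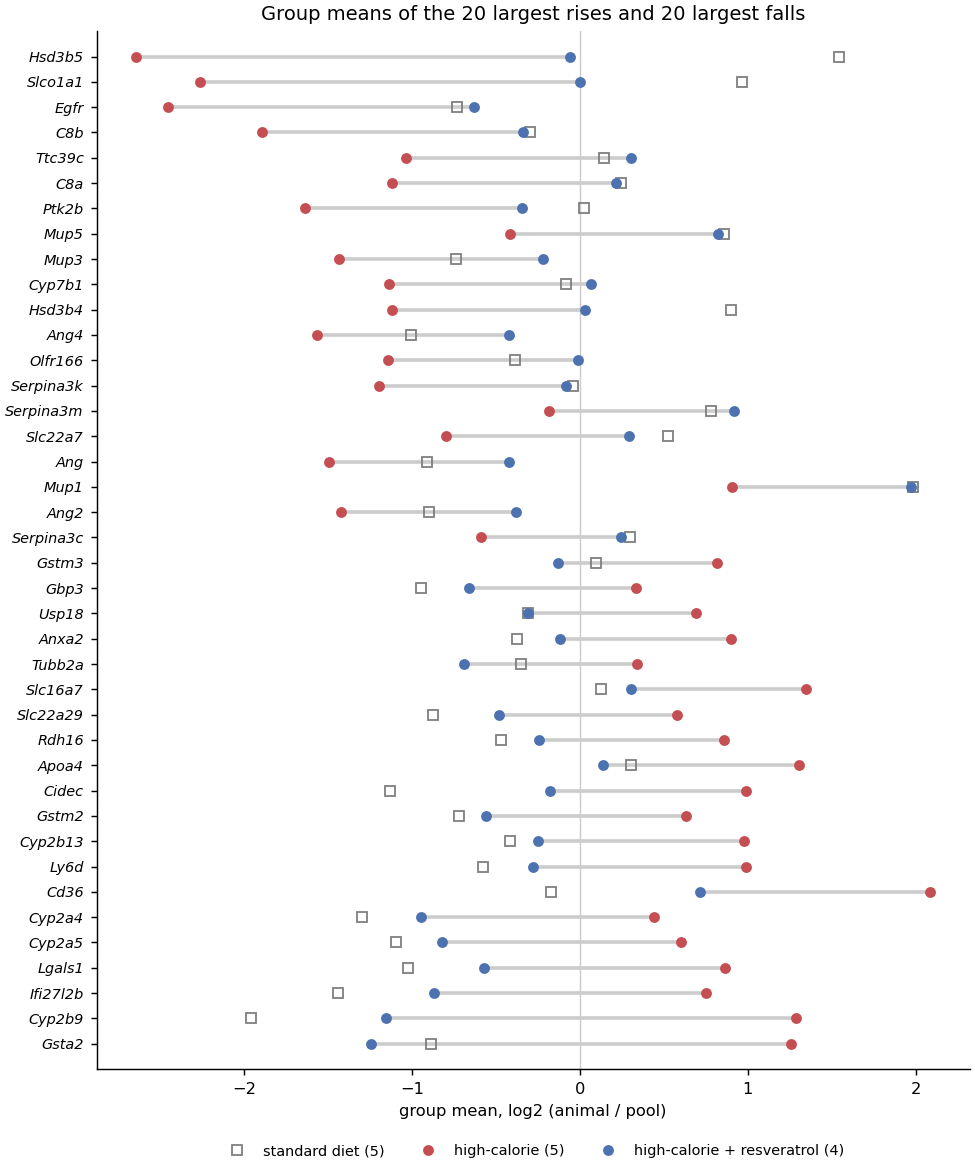
Mean log2 ratio of mouse to pool (x axis) for the 20 largest rises and 20 largest falls past the threshold, for genes with a RefSeq symbol and no overlap between high-calorie and resveratrol arrays, with red for high-calorie, blue for resveratrol and open squares for standard-diet livers. The Mup1 probe is saturated on all 4 resveratrol arrays, so its blue point carries no size; Cd36 and Hsd3b5 show blue points between the red points and the squares.

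The male-biased, interferon and NRF2 lists lay nearer to the standard-diet livers with resveratrol than without. The median difference from the standard diet was -0.90 on the high-calorie diet and -0.04 with resveratrol for the male-biased list, 0.41 and 0.08 for the interferon list, and 0.36 and 0.02 for the NRF2 list. The comparisons share arrays, so their values are given side by side only. Against the standard diet 3083 genes (9.44%) passed in high-calorie livers and 70 (0.214%) in resveratrol livers, 41 higher (0.125%) and 29 lower (0.0888%). The resveratrol comparison had 4 arrays in place of 5. All 5 standard-diet arrays were in the second slide series. Resveratrol replicates 1, 3 and 4 and high-calorie replicates 1 and 4 were in the first, so both comparisons were unbalanced by slide series. Hsd3b5 differed from the standard diet by -4.18 on the high-calorie diet and by -1.60 with resveratrol (adjusted p = 0.0874). For Cd36 the values were 2.26 and 0.89 (adjusted p = 0.0874), for Gsta2 2.14 and -0.36, and for Usp18 1.00 and 0.00. Cholesterol synthesis departed further instead, as did the acute phase list on resveratrol replicates 3 and 4. The acute phase median was 0.01 from the standard diet on the high-calorie diet and 0.43 with resveratrol, where 1 of 34 genes passed. Relative to high-calorie livers the list's mean was 0.01, -0.10, 2.38 and 0.64 on resveratrol replicates 1 to 4. On standard-diet arrays it was -0.002 to 0.19. For cholesterol synthesis the median difference from the standard diet was 0.30 on the high-calorie diet and 0.67 with resveratrol, and Msmo1 went from 1.09 to 2.17 (adjusted p = 0.0024). Khk likewise went from -0.29 to -0.80 (adjusted p = 0.0065).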

How the data were processed

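Liver RNA was extracted with RNeasy and labelled after low RNA input linear amplification, per the labels' protocols. Each of the 14 arrays was deposited as spot intensity values, made with Agilent Feature Extraction 7.5.1 per the file headers. The authors also deposited 1 table of score values with a mean of 0 and an SD of 1 per array; the steps behind it are not stated in the files or labels, and it served as an alternative. Mean intensities were background-corrected (normexp, offset 50) and loess-normalised within arrays in limma 3.58.1 (R 4.3.3), with controls at weight 0 and 576 outlier-marked spots left out. Of 41174 probes 20859 were matched to 15944 RefSeq genes, 11450 of them by systematic name. The brightest probe stood for a gene, and 32675 genes and unmatched probes were tested, each with a Cy3 signal well above background on 4 or more of the 9 arrays.

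All 14 arrays entered a fit with 3 groups; the contrast was resveratrol minus high-calorie, and limma p-values were adjusted by Benjamini-Hochberg over all genes tested, with a threshold of 0.05. Each sets the group difference against a spread between mice pooled over the 3 groups. Extraction day and slide series are not separated from that spread or from the difference. The number of arrays limits the precision. Named genes were the 20 largest rises and 20 largest falls without overlap between groups, up to 5 passing members per list (or 2 values where none passed), a set of metabolic regulators, and the genes nearest the threshold. A further 27 genes, among them Lcn2, Saa1, Saa2, Hba-a1, Ifit3, Isg15, Oas1a, Bst2, Hmgcs1, Cidea, Gclc, Susd4 and Elovl3, were chosen after their values were seen. The groups compared and all 47 gene lists were chosen with earlier results of these data known. On simulated data with 32250 genes the fit recovered 82.1% of changes of 0.5 and 98.5% of changes of 1 on the log2 scale, with 11 false calls of 197. The simulation drew independent noise with the same SD per gene in all groups, few changed genes and no scaling or batch. Its rates therefore do not carry over to these arrays, where resveratrol livers were more scattered and extraction days did not match. Alternatives covered background correction, scaling, filters, probes, blocks and omission of each array. Same-numbered mice of the compared groups did not deviate together (correlations of -0.0676, -0.0934, -0.167 and -0.136).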

Additional observations from a re-analysis of the deposited data

Results flagged for a closer look

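A single array stood apart within its group in 22 of 378 groups of values examined, by the gap to its nearest neighbour as a share of the group's range. Chance gives about 1 in 20, which is near the number seen, so the flags below only describe values. Resveratrol replicate 3 was the lowest of its group for Gclc (share 0.911), Gstm3 (0.964), Insig2 (0.888), Mpc1 (0.92) and the mean of the PPAR-alpha and fatty acid oxidation list (0.833). It was the highest for the mean of the hepatocyte markers (0.943), at 0.46 above the high-calorie mean. Resveratrol replicate 1 was the highest for Mup3 (0.896), Mup5 (0.876), Ttc39c (0.878) and Retn (0.872). The same liver was the lowest for Hmgcs1 (0.889) and for the mean of the constitutive proteasome (0.901), which lay at -0.21. Resveratrol replicate 2 was the highest for Khk (0.86) and the lowest for Lrat (0.892). Resveratrol replicate 4 was the highest for Apoc2 (0.968).

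Among high-calorie livers, replicate 4 was lowest for Anxa4 (0.768) and for the median net Cy5 signal (0.73; 98.7 intensity units). Replicate 3 was lowest for Oas1a (0.719), Prdx6 (0.737) and the mean of the list for SREBP2 regulation and cholesterol uptake (0.75). Replicate 2 was lowest for Slc16a7 (0.816) and highest for the mean of lymphocyte and natural killer cell markers (0.769).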

How the results depend on the processing

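The number of genes that passed, 1760, was 2695 without background correction, 951 with a normexp offset of 10, 698 from the scanner's processed signals, 120 with median scaling, 83 with Cy3 alone, 48 with the deposited scores and 3062 with array weights. It was 445 with extraction day and 672 with slide series as a block, 52 within the first day, 0 in limma within the first slide series (3987 at an unadjusted p under 0.05), and 352 to 2043 without single arrays. With the replicate number as a block it was 409; the numbers carry no pairing in the labels, and the correlations in the processing account show none. Other filters, probe rules, Aquantile, the 9 arrays alone, a brightness covariate and a robust prior stayed within 1.5 times. Of the 132 named genes that passed, 59 kept their call in all 9 omissions, and 131 kept their direction with Cy3 alone; the exception, Ahsg, gave -0.14 there. With median scaling 132 kept direction and 46 passed, and of the 118 with a deposited score 118 kept direction and 24 passed. These genes were taken because they passed on the same arrays, so their kept direction is no check on the calls. Why the counts differ was not tested.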

Other observations

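Further gene groups are given by their counts, where 3.16% of all genes rose and 2.22% fell. Of 19 pericentral genes, expressed around the central vein, 3 fell (15.8%), and none in limma without resveratrol replicate 1 or with extraction day as a block: Cyp2a5, the ammonium transporter Rhbg (-0.61) and the hepatokine Lect2 (-0.60). None of 16 periportal genes passed in limma, with a median of -0.07 against -0.10 for the pericentral list. Of 41 genes of the urea cycle and amino acid breakdown 1 fell, the glycine decarboxylase Gldc (-0.48). In the unfolded protein and stress response 1 of 33 rose, the pseudokinase Trib3 (0.17), and the list's median of 0.12 was 0.01 without resveratrol replicate 3. Among 30 cell cycle genes Ccnd1, which encodes cyclin D1, fell (-0.42) and Ccnb1, which encodes cyclin B1, rose (0.26). Among 31 iron and heme genes the transferrin receptor Tfr2 rose (0.48) and Smad6 fell (-0.21). Without resveratrol replicate 1 none of Rhbg, Lect2, Gldc, Trib3, Ccnd1, Ccnb1, Tfr2 and Smad6 passed in limma, and over the single omissions their adjusted p reached 0.156.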
